A study of Homo sapiens with 8 samples.

Results

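The SMAD family was followed over 8 Illumina HT-12 expression arrays of A2058 cells with or without TGFβ1 treatment. All probes whose annotated symbol was SMAD1, SMAD2, SMAD3, SMAD4, SMAD5, SMAD6, SMAD7 or SMAD9 were taken, which gave 15 of the 47315 probes and 8 of the 20045 genes measured. A2058 is a human line grown from a melanoma metastasis. The sample titles name an empty vector for all 8 wells, controls included, and mark 4 as TGFβ treated and 4 as untreated. The untreated wells are called vehicle here. The methods for these arrays do not describe how or when the vector was given. Per the methods, treatment lasted 24 h in serum-free medium. The methods give 5 or 10 ng/ml as doses and do not state which was used for these arrays. Since the 8 wells shared a plating day and a passage, the p-values reflect well-to-well spread only.

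SMAD proteins carry the signal of TGFβ family receptors from the membrane to the nucleus. The receptors phosphorylate the receptor SMADs, of which SMAD2 and SMAD3 serve TGFβ and activin while SMAD1, SMAD5 and SMAD9 serve the bone morphogenetic proteins (BMPs), and these join the common SMAD4 to regulate genes. The inhibitory SMADs, SMAD6 and SMAD7, block the receptors and are themselves targets of the pathway.

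The deposited values were log2 values centred on 0 for every probe over the 8 arrays, so they give differences between wells and hold no level of expression. The SMAD genes can therefore not be ranked by abundance, and a dim probe cannot be told from a bright one. For the same reason, the melanocyte identity of the cells could not be checked against marker levels. Of 9 melanocyte lineage markers measured, 4 fell in the treated wells (limma, adjusted p under 0.05), against 2.67% of all genes. These were MITF, SOX10, TYRP1 and EDNRB. SAM called 3 of them lower and not SOX10, which had an adjusted p of 0.0113 in limma. In the list, 0 markers were higher by limma, by SAM or at an unadjusted p under 0.05. The mean value of that list ran from −0.19 to −0.10 under TGFβ1 and from 0.087 to 0.20 under vehicle. Of 6 keratinocyte markers, 1 was higher, KRT10, against 3.03% of all genes. Of 7 leukocyte markers, 0 passed in limma, 0 at an unadjusted p under 0.05 and 0 by SAM. Whether the fall of the melanocyte markers has a part in the SMAD changes was not tested. In whole wells, fewer cells expressing a gene and less RNA per cell cannot be told apart.

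The inhibitory SMADs were higher and SMAD3 was lower under TGFβ1. A probe was called at an adjusted p under 0.05 in limma, with the Benjamini-Hochberg method over all 47315 probes. All 3 probes of the inhibitory class were called higher, 1 of the 4 probes of the TGFβ branch was called lower, 1 of the 7 probes of the BMP branch was called higher, and the single SMAD4 probe was not called. Of the 15 SMAD probes, 4 were called higher, against 1.8% of all probes, and 1 was called lower, against 1.53%. By SAM, the 2-group test named in the methods, 3 were higher, against 1.29%, and 1 was lower, against 0.782%. The groups did not overlap for 3 probes that were higher, against 3.64% of all probes, and for 1 that was lower, against 3.62%. Taken as the mean of its probes, 2 of the 8 SMAD genes were called higher, against 3.03% of all genes, and 1 lower, against 2.67%. The median change of the 15 probes was 0.017, beside −0.0018 for all probes, and the median size of the change was 0.13, beside 0.067. The median SD within groups was 0.11 for the SMAD probes and 0.12 for all probes.

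**Figure D1:**
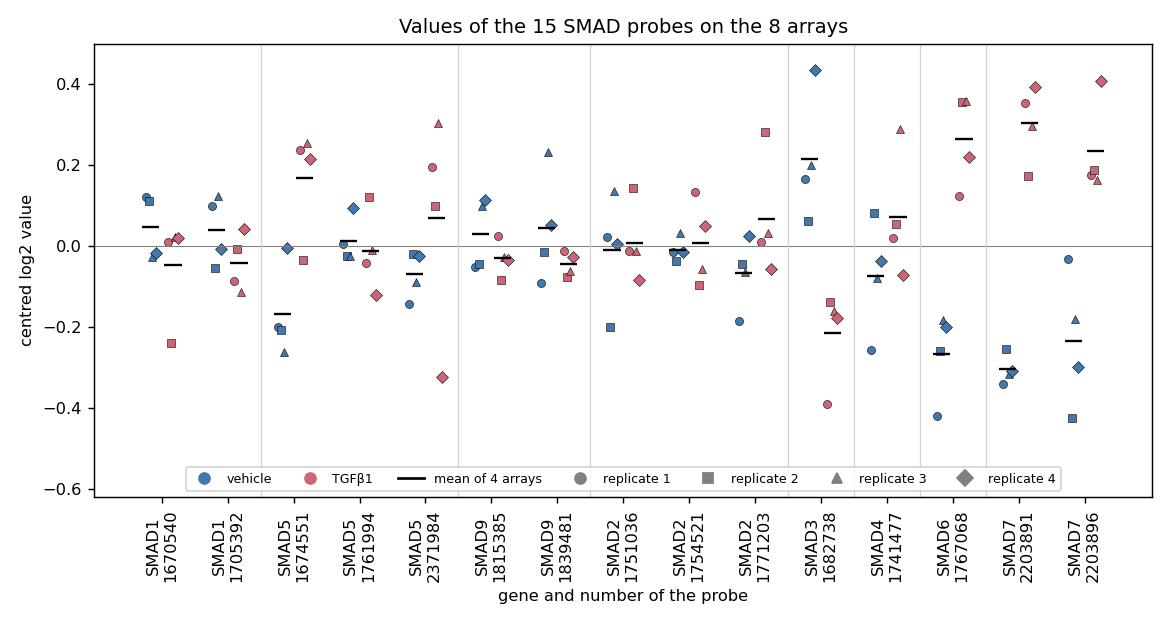
Centred log2 value of each of the 15 SMAD probes (x axis, gene and number of the probe) on the 4 vehicle arrays (blue) and the 4 TGFβ1 arrays (red), with the shape of a point giving the replicate and the bar the mean of 4 arrays. The red points lie above all blue points for SMAD6 and both SMAD7 probes and below them for SMAD3.

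SMAD7, which recruits SMURF ubiquitin ligases to the receptors and so ends their signal, was measured by a pair of probes. With ILMN_2203891, the values of vehicle replicates 1 to 4 were −0.34, −0.26, −0.32 and −0.31, and those of TGFβ1 replicates 1 to 4 were 0.35, 0.17, 0.30 and 0.39. The 4 vehicle wells lay close together and far below every treated well. From a vehicle mean of −0.30 ± 0.036 (SD, n = 4), it reached 0.30 ± 0.095 (SD, n = 4) in the treated wells, a rise of 0.61 on the log2 scale (SE 0.076) or 1.53-fold, which limma gave an adjusted p of 2.57e-05. This was the SMAD probe with the smallest p, at rank 272 of all probes. With ILMN_2203896, the vehicle values were −0.031, −0.43, −0.18 and −0.30 and the TGFβ1 values 0.18, 0.19, 0.16 and 0.41. The vehicle wells were more scattered here, and the highest of them still lay below all treated wells. This probe rose 1.38-fold, by 0.47 on the log2 scale with an SE of 0.091 and a limma adjusted p of 0.00336. The changes of the 2 probes differed by −0.14 (SE 0.11), which was not past the threshold in a two-sided exact permutation test (p = 0.286, 0.566 after adjustment over 9 pairs of probes). The smallest p that 70 labellings allow is 0.0286, so 1 pair alone could not pass after this adjustment. The test therefore does not show that the probes agree.

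SMAD6, an inhibitor that acts mainly on the BMP receptors, had 1 probe, ILMN_1767068. Its values were −0.42, −0.26, −0.18 and −0.20 in vehicle replicates 1 to 4. They were 0.12, 0.36, 0.36 and 0.22 in TGFβ1 replicates 1 to 4. All treated wells were above 0 and all vehicle wells below it. SMAD6 rose 1.44-fold, from −0.27 ± 0.11 (SD, n = 4) to 0.27 ± 0.11 (SD, n = 4), a difference of 0.53 with an SE of 0.083 and a limma adjusted p of 0.000361. The rise of SMAD6 was close to that of SMAD7 taken as the mean of its probes. The difference between their changes was 0.0080 (SE 0.12, exact permutation p = 1), which leaves room for a difference of either sign.

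SMAD3, the DNA-binding receptor SMAD of the TGFβ branch, had 1 probe, ILMN_1682738, and moved the other way. Its values were 0.17, 0.061, 0.20 and 0.43 in vehicle replicates 1 to 4. They were −0.39, −0.14, −0.16 and −0.18 in TGFβ1 replicates 1 to 4. The groups did not overlap, with vehicle replicate 4 the highest well and TGFβ1 replicate 1 the lowest. SMAD3 fell 1.35-fold, from 0.22 ± 0.16 (SD, n = 4) to −0.22 ± 0.12 (SD, n = 4), a difference of −0.43 with an SE of 0.089 and a limma adjusted p of 0.00626.

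Sequences were held only for probes in the study's own list of those altered by TGFβ1, and the called probe of the BMP branch has none here. The sequences of the SMAD7, SMAD6 and SMAD3 probes show what was measured, and the first 30 of their 50 bases are given.
SMAD7 ILMN_2203891: cccatcctgtgtgttaagctctgctattag
SMAD7 ILMN_2203896: ctcatacactcgtatgatacttcgacactg
SMAD6 ILMN_1767068: ccagagacacagcccccacggacaaaaccc
SMAD3 ILMN_1682738: tgcaactcggctgttctggactctgatgtg
Both SMAD7 probes read the minus strand of chromosome 18, with starts 161 bases apart, so they sample neighbouring stretches of 1 transcript and are not separate tests of the gene. The SMAD6 and SMAD3 probes read the plus strand of chromosome 15. The genome build of the probe positions is not given in the sources used here, so no exon or UTR was assigned to them. In RefSeq on GRCh38.p14, SMAD6 (chr15:66702236-66782849) and SMAD3 (chr15:67065602-67195169) are on the same chromosome and changed in opposite directions. SMAD7 (chr18:48919853-48950965) is on chromosome 18, as are SMAD2 (chr18:47808957-47930872) and SMAD4 (chr18:51030213-51085042), neither of which was called.

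The promoters of the 3 genes that were called were compared for some of the elements that SMADs are known to bind. The 250 bases before the first annotated start are shown from RefSeq on GRCh38.p14, with GTCTAGAC and GGCGCC in capitals.
SMAD6, chr15:66701986-66702235, plus strand: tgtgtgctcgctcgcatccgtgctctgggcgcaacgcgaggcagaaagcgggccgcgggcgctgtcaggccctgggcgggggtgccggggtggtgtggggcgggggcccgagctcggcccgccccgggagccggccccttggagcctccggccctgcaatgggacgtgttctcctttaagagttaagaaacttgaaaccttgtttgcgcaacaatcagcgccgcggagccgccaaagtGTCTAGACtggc
SMAD7, chr18:48950966-48951215, minus strand: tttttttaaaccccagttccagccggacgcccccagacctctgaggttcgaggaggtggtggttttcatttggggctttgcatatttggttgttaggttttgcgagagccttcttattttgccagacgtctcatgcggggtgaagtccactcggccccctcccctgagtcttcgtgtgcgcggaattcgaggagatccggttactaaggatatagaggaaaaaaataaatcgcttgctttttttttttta
SMAD3, chr15:67065352-67065601, plus strand: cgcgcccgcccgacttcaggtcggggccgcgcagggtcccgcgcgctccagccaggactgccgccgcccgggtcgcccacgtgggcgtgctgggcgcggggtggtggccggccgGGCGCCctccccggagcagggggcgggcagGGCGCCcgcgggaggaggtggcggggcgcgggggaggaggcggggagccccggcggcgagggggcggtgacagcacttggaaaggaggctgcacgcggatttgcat
GTCTAGAC is the palindrome from which the SMAD-binding element was defined, and GGCGCC is a GC-rich site bound by SMADs of the BMP branch. Each reads the same on both strands. SMAD6 held GTCTAGAC with its first base at −12 from the start, and no window of the other 7 members held it. Among all 35116 promoter windows of 300 bases, 71 (0.202%) held this element. SMAD3 held GGCGCC in its first window, at −136 and −106, an element found in 19.2% of all windows. GGCGCC was also in windows of SMAD1, SMAD2, SMAD4 and SMAD5, none of which was called as a gene. The SMAD7 windows, 3 in number, held none of these elements and no CAGACA on either strand, which occurs in 16.9% of all windows. SMAD3 had CAGACA in 1 of its 5 windows. A match of letters is a description of the sequence only, and its absence concerns these windows and these exact letters alone. Shorter sites were not searched, and the SMAD7 stretch shown does hold cagac, the start of CAGACA.

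SMAD2, the partner of SMAD3 in the TGFβ branch, was measured by 3 probes, none of which was called. Their log2 changes were 0.017 (95% confidence interval −0.16 to 0.19, ILMN_1751036), 0.017 (−0.14 to 0.18, ILMN_1754521) and 0.13 (−0.044 to 0.31, ILMN_1771203). Per gene, SMAD2 ran from −0.094 to 0.035 under vehicle and from −0.030 to 0.11 under TGFβ1, so the groups overlapped. Its change was 0.056, with an interval from −0.074 to 0.19 that does not reach the changes of SMAD6 and SMAD7. The change of SMAD3 minus that of SMAD2 was −0.49 (SE 0.093), and the per-array differences did not overlap between the groups (two-sided exact permutation p = 0.0286, the smallest that 70 labellings allow, 0.05 after adjustment over 28 pairs of genes).

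SMAD4, the shared partner that all receptor SMADs join, had 1 probe, ILMN_1741477. Its values were −0.26, 0.081, −0.080 and −0.038 in vehicle replicates 1 to 4 and 0.020, 0.055, 0.29 and −0.072 in TGFβ1 replicates 1 to 4. The groups overlapped, with vehicle replicate 1 low and TGFβ1 replicate 3 high. The log2 change was 0.15 (95% confidence interval −0.045 to 0.34, adjusted p = 0.634 in limma).

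Among the BMP receptor SMADs, SMAD5 gave different answers from its 3 probes. ILMN_1674551 had values of −0.20, −0.21, −0.26 and −0.0044 in vehicle replicates 1 to 4 and 0.24, −0.035, 0.26 and 0.21 in TGFβ1 replicates 1 to 4. The groups overlapped, since TGFβ1 replicate 2 lay below vehicle replicate 4. This probe passed in limma (log2 change 0.34, SE 0.086, adjusted p = 0.0325) and was not called by SAM. Its adjusted p in limma rose to between 0.0632 and 0.11 when 1 of 6 arrays was left out (vehicle replicates 1, 2 and 3 and TGFβ1 replicates 1, 3 and 4), and the call stayed without either of the other two. ILMN_2371984, annotated to the same transcript, changed by 0.14 (95% confidence interval −0.083 to 0.36). Its treated wells spread from −0.32 in replicate 4 to 0.30 in replicate 3. ILMN_1761994, annotated to another transcript, changed by −0.025 (−0.19 to 0.14). The change of ILMN_1761994 minus that of ILMN_1674551 was −0.36 (SE 0.12, exact permutation p = 0.0571, 0.514 after adjustment over 9 pairs). Over its 3 probes SMAD5 changed by 0.15 (SE 0.069, adjusted p = 0.312 in limma) and was not called.

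SMAD1 and SMAD9, which serve the same BMP receptors, were not called by any probe. SMAD1 changed by −0.094 (95% confidence interval −0.27 to 0.077, ILMN_1670540) and −0.081 (−0.24 to 0.079, ILMN_1705392). Its first probe had 3 treated wells between 0.0097 and 0.022 and TGFβ1 replicate 2 at −0.24. SMAD9 changed by −0.059 (−0.22 to 0.099, ILMN_1815385) and −0.090 (−0.26 to 0.079, ILMN_1839481). The vehicle wells of SMAD9 were the more scattered, from −0.072 to 0.17 per gene, and the treated wells ran from −0.080 to 0.0063. In RefSeq on GRCh38.p14 these genes are at chr4:145480770-145559176 (SMAD1), chr5:136132845-136182733 (SMAD5) and chr13:36844831-36920854 (SMAD9).

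**Figure D2:**
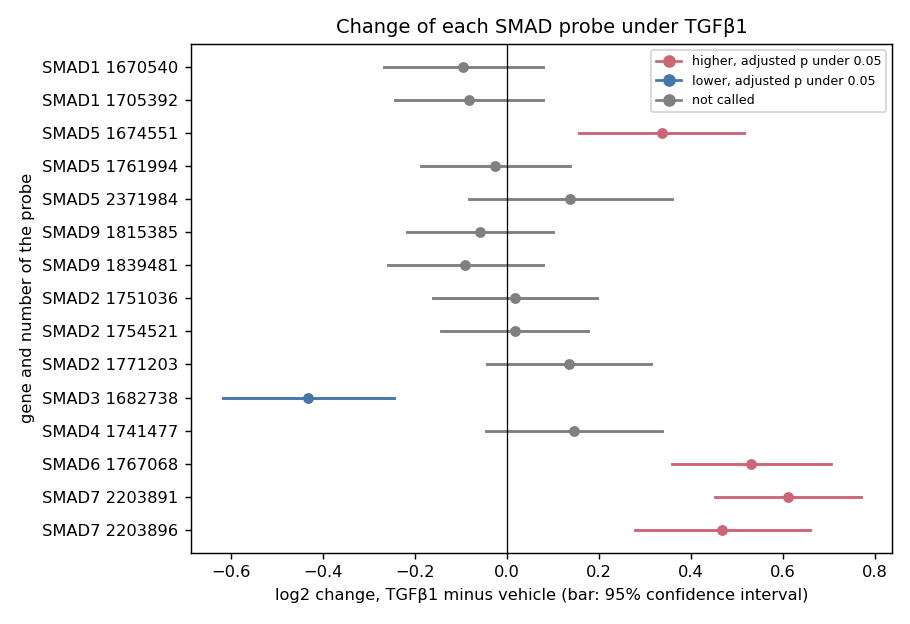
Log2 change (x axis, TGFβ1 minus vehicle, n = 4 arrays per group) of each SMAD probe with its 95% confidence interval, in red where called higher, in blue where called lower and in grey otherwise. The intervals of SMAD6, SMAD7, SMAD3 and 1 of the 3 SMAD5 probes exclude 0, and the other 10 intervals include it.

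The genes of the family were then compared with one another, by the difference of 2 genes on each array. Of 28 pairs, 16 had differences that did not overlap between the groups, each with the smallest exact p of 0.0286. After adjustment over the 28 pairs these p-values were 0.05, so 0 pairs were under the threshold. Each of the 16 pairs included SMAD3, SMAD6 or SMAD7, whose own groups did not overlap, so the pairs largely repeat those changes. The share among pairs of all genes was not computed. All 7 pairs with SMAD3 were without overlap, as were 6 with SMAD6 and 5 with SMAD7. The 70 labellings allow no smaller p, so this test could not set these pairs apart. The widest gaps were SMAD7 minus SMAD3, at 0.97 (SE 0.12), and SMAD6 minus SMAD3, at 0.96 (SE 0.082). SMAD7 minus SMAD1 was 0.63 with the smallest SE of the 28 differences, 0.027, and the SD of the difference was 0.039 within the TGFβ1 wells and 0.036 within the vehicle wells. SMAD7 minus SMAD4 was 0.39 (SE 0.15), and its groups overlapped (exact permutation p = 0.0571, 0.08 after adjustment). The order of change was SMAD7, SMAD6, SMAD5, SMAD4, SMAD2, SMAD9, SMAD1 and SMAD3. Neighbours overlapped for SMAD7 minus SMAD6 (0.0080), SMAD5 minus SMAD4 (0.0033), SMAD4 minus SMAD2 (0.090), SMAD2 minus SMAD9 (0.13, exact permutation p = 0.0571) and SMAD9 minus SMAD1 (0.013). The 5 genes from SMAD5 to SMAD1 in this order were thus not separated from one another by any pair.

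**Figure D3:**
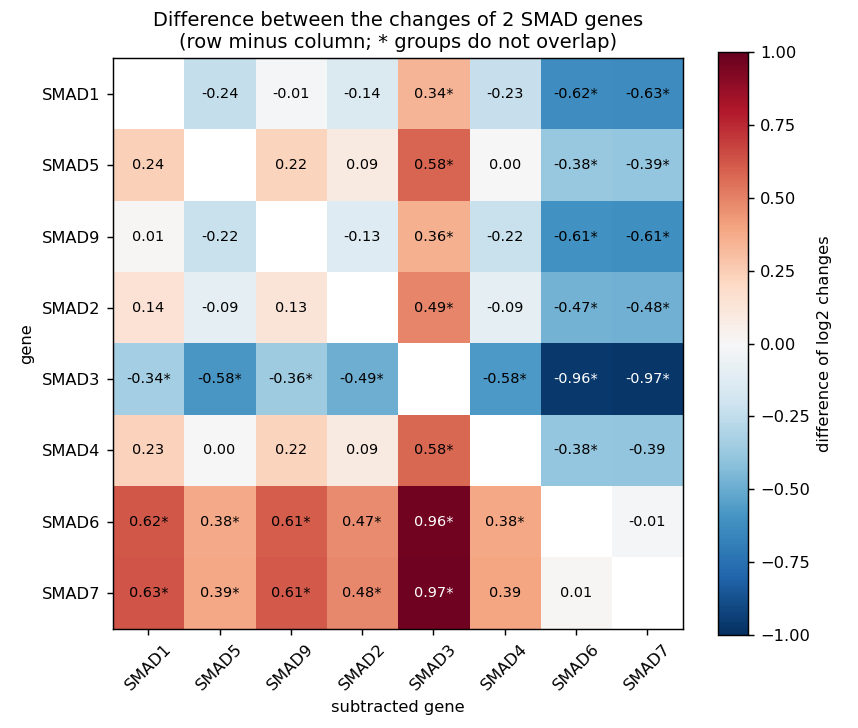
Difference between the log2 changes of 2 SMAD genes, as the gene of the row minus the gene of the column, in red where positive and blue where negative. An asterisk marks pairs whose per-array differences do not overlap between 4 TGFβ1 and 4 vehicle arrays, and all 7 pairs with SMAD3 carry one.

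Around the family, the receptors above the SMADs and the genes below them moved to different extents. The median log2 change of all genes was −0.0013, and 5.7% of them were called. Of the 17 TGFβ and activin ligands and receptors, 2 were lower (median −0.065), and 0 were higher by limma, by SAM or at an unadjusted p under 0.05. These were the co-receptor TGFBR3 (log2 change −1.42, SE 0.063) and the ligand GDF11 (−0.44, SE 0.067), the latter through 1 of its 2 probes. The signalling receptors TGFBR1 and TGFBR2 changed by −0.086 (SE 0.071) and −0.088 (SE 0.066) and were not called. Of the 12 BMP ligands and receptors, the receptor BMPR2 was higher (1.66, SE 0.14), the ligand BMP7 was lower (−0.33, SE 0.071), and the other 10 were not called (median −0.0079). BMP7 was not called by SAM. BMPR2 rose on both of its probes, ILMN_1789095 by 1.76 and ILMN_2070896 by 1.56.

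Among 15 anchors, phosphatases and transport factors of SMADs, 1 was higher, against 3.03% of all genes, and 2 were lower, against 2.67% (median 0.0081). LEMD3, an inner nuclear membrane protein that binds receptor SMADs, rose by 0.36 (SE 0.076), with 1 of its 2 probes called (0.54 on ILMN_1727361, 0.19 on ILMN_2183938). DAB2, an endocytic adaptor, fell by 0.81 (SE 0.065), and the phosphatase CTDSPL fell by 0.37 (SE 0.067). Of the 14 ubiquitin ligases and deubiquitinases that act on SMADs or their receptors, 0 were called in limma and 0 by SAM, and 3 were at an unadjusted p under 0.05, as were 15.6% of all genes (median −0.014). The corepressors and decoys divided, with 2 of 12 higher and 2 lower, against 3.03% and 2.67% of all genes. PMEPA1, a membrane protein that sequesters receptor SMADs, rose by 1.07 (SE 0.057), with 3 of its 4 probes called and changes from 0.22 on ILMN_1675858 to 1.71 on ILMN_2309156. The corepressor TGIF1 rose by 0.36 (SE 0.060) with 3 of its 7 probes called, and was not called when the median of its probes was used (adjusted p = 0.115 in limma). The related TGIF2 fell by 0.36 (SE 0.077) and the decoy receptor BAMBI fell by 0.32 (SE 0.074), both not called by SAM. BAMBI also lost its call in limma with the replicate number as a block (adjusted p = 0.0559) and without vehicle replicate 2 or TGFβ1 replicate 1 or 2 (up to 0.0663). The other 8 of these 12 genes were not called (median 0.029), among them the corepressor SKIL at 0.24 (SE 0.074, adjusted p = 0.0895 in limma). Its groups did not overlap in the mean of its probes, as for 1043 of all 20045 genes in this direction. On each of its 2 probes the groups overlapped (0.34 on ILMN_1736834, 0.13 on ILMN_2098119).

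Of 27 coactivators and DNA-binding partners, 3 were higher and 5 lower (median −0.0029). YAP1, a transcriptional coactivator, rose by 0.60 (SE 0.11), the AP-1 subunit JUN by 0.48 (SE 0.069), and RUNX3 by 0.23 (SE 0.056) through 1 of its 2 probes. The RUNX3 call was lost in limma with the replicate block (adjusted p = 0.0632) and without vehicle replicate 2 or 3 or TGFβ1 replicate 1 or 2 (up to 0.0823). The acetyltransferase KAT2B fell by 0.62 (SE 0.11), and the coactivators CITED2 and CITED1 fell by 0.56 (SE 0.068) and 0.49 (SE 0.096). Of 27 targets of SMAD3 and SMAD4, 13 were higher, against 3.03% of all genes, and 2 lower, against 2.67%, with a median of 0.24. This list, like the others, was chosen with earlier results of these data known, so its counts are no independent test. The cytokine IL11 rose by 3.50 (SE 0.092), the matrix protein TGFBI by 2.40 (SE 0.075) and the activin antagonist FSTL3 by 1.09 (SE 0.11), whereas MYC fell by 0.87 (SE 0.071) and the transcription factor SNAI2 by 0.71 (SE 0.061). Of 10 targets of SMAD1 and SMAD5, 2 were higher and 1, BAMBI, was lower (median −0.11). ID3, an inhibitor of basic helix-loop-helix factors, rose by 1.86 (SE 0.080). Its relative ID1 rose by 0.80 (SE 0.066), from 1.55 on ILMN_1664861 and 0.049 on ILMN_1665832. The changes of the 8 SMAD genes, from −0.43 to 0.54, lay inside the range of the SMAD3 and SMAD4 targets, from −0.87 to 3.50. The SMAD1 and SMAD5 targets went no lower than −0.32, so SMAD3 lay outside their range.

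**Figure D4:**
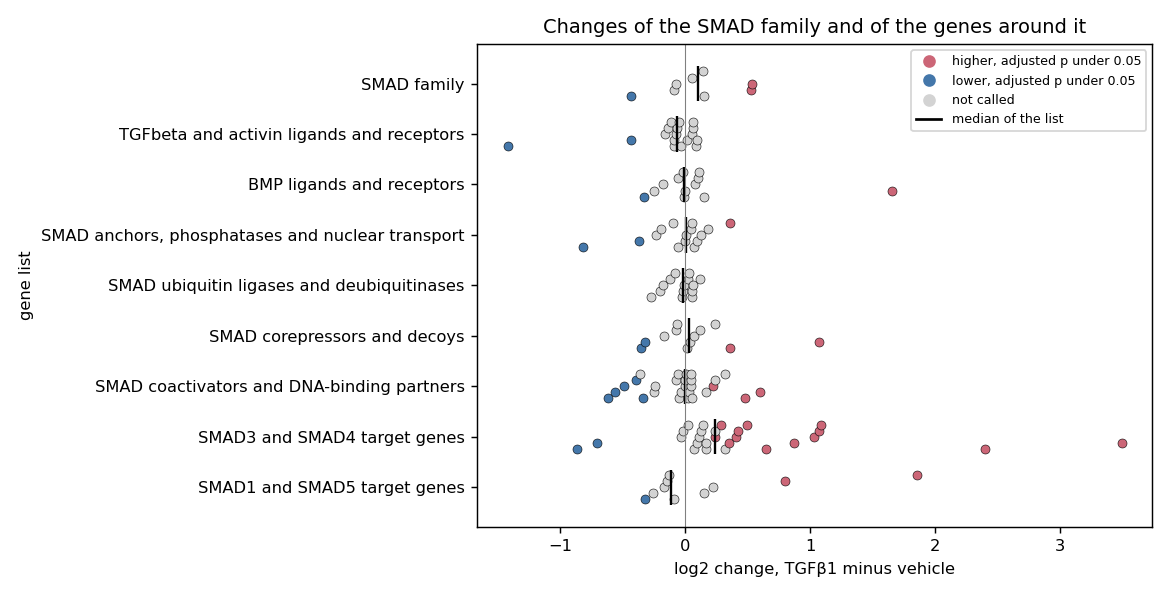
Log2 change (x axis, TGFβ1 minus vehicle) of each gene of the SMAD family and of 8 lists of genes around it (y axis), in red where called higher, in blue where called lower and in grey otherwise, with a black line at the median of each list. The targets of SMAD3 and SMAD4 hold 13 red and 2 blue points, and the ubiquitin ligases hold none of either colour.

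The genes outside the family whose pattern was most like that of a called member were found by the root mean square difference of the 8 array values. For SMAD7 these were RASSF4 (0.049), WNT5A (0.049) and PPP4R1 (0.053), against a root mean square of 0.28 for SMAD7 itself. They rose by 0.53, 0.57 and 0.49. For SMAD6, with a root mean square of 0.28, they were TMEM154 (0.073), GEM (0.078) and KIAA2013 (0.081), which rose by 0.49, 0.55 and 0.47. The rises of RASSF4, TMEM154 and GEM were called on 1 of 2, 1 of 2 and 2 of 3 probes. For SMAD3, with a root mean square of 0.25, they were FAM210A (0.079), CCDC102A (0.083) and CFLAR (0.089), with changes of −0.30, −0.38 and −0.30. CCDC102A was called lower, FAM210A was at an adjusted p of 0.0498 in limma, and CFLAR was not called. Each of these genes was the pick of 20045 over only 8 arrays, and nothing is said here of shared function or control.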

How the data were processed

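The arrays were Illumina HT-12 BeadChips of 8 wells. Per the methods, the authors quantile normalised the signals, dropped control probes, took logarithms and centred both genes and samples. The deposited values are therefore log2 values centred on 0, and their base is taken from the methods, since it cannot be read from the values. Array medians ran from −0.00504 to −0.00147. With no signal level or detection value, no filter on dim probes was possible. The number of arrays limits the precision. A symbol from the GEO platform annotation was attached to 30105 probes. Another 8 probes had several symbols and 17202 had none. Probes of 1 gene were averaged.

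The 2 groups were contrasted without covariates in limma 3.58.1 (lmFit, then eBayes; R 4.3.3), with Benjamini-Hochberg adjustment over every probe or every gene. The fit was tested on simulated data. Members and gene lists were chosen with earlier results of these data known. Named were all members, up to 3 genes per direction in each pathway list with the largest change among those called without overlap, 4 receptors and targets whatever their call (TGFBR1, TGFBR2, SKIL and ID1), and the 3 genes nearest in pattern to each called member. Another gene of this rule is not reported here. Differences between probes or genes were tested by two-sided exact permutation over 70 labellings. SAM, recoded here at a median of 10 false positives, and further settings were alternatives. Promoters came from RefSeq on GRCh38.p14, in which all 8 members matched. Probe sequences, held for 4 of 15 member probes, came from the study's supplementary table of probes it found altered by TGFβ1. Python 3.11.15, pandas 2.3.3, numpy 2.4.6, scipy 1.17.1 and matplotlib 3.10.9 were used.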

Additional observations from a re-analysis of the deposited data

Results flagged for a closer look

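In groups of 4 arrays, the highest or lowest array was taken as standing apart when its gap to the nearest other array, divided by the range of the group, was above Dixon's critical value at the level of 95%. This held in 11 of 118 groups, and chance alone gives about 1 in 20, or 5.9. Several of these groups are not separate, since SMAD3 counts both as a probe and as a gene with the same values.

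Within the family, TGFβ1 replicate 2 was low for SMAD1 on ILMN_1670540 at −0.24 (the others from 0.0097 to 0.022) and for SMAD5 on ILMN_1674551 at −0.035 (the others from 0.21 to 0.26). For SMAD3, TGFβ1 replicate 1 was low at −0.39, with the others between −0.18 and −0.14, on its probe ILMN_1682738 and so also as a gene. For SMAD7, TGFβ1 replicate 4 was high on ILMN_2203896 at 0.41, with the others between 0.16 and 0.19. Without TGFβ1 replicate 2, the change of SMAD5 on ILMN_1674551 was 0.40 (adjusted p = 0.0117 in limma).

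Among the other genes, TGFβ1 replicate 1 was low for FAM210A at −0.37 and for ID1 at 0.24, and high for LEMD3 at 0.27. TGFβ1 replicate 4 was high for RASSF4 at 0.47 and low for TGFBR3 at −0.79. Vehicle replicate 2 was high for TGFBR2 at 0.16.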

How the results depend on the processing

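The counts of SMAD probes and genes called kept their size with array weights, a robust variance model, renewed quantile normalisation and scaling to a common median, and no called result changed direction. SAM called 370 probes and 294 genes lower in all. At an adjusted p under 0.01, limma called 567 probes higher and 392 lower, and 360 genes higher and 257 lower. Leaving out each array in turn, 699 to 905 probes were called higher and 527 to 742 lower, and 479 to 621 genes higher and 406 to 549 lower. Of the SMAD probes 3 to 4 were then called higher and 1 lower, and of the SMAD genes 2 higher and 1 lower. The adjusted p in limma then ran from 0.00624 to 0.0325 for SMAD3, from 0.00041 to 0.00286 for SMAD6, and from 4.85e-05 to 0.000194 and 0.00133 to 0.0221 for the SMAD7 probes. SMAD5 on ILMN_1674551 lost its call by SAM and under 0.01. As a gene, SMAD5 was called when its most variable probe stood for it (0.34, adjusted p = 0.0276).

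Replicate numbers did not pair the arrays, since the correlations of same-numbered deviations were −0.0159, 0.0265, −0.0151 and −0.00386, and 1 of 4 TGFβ1 arrays matched its own number best. With the replicate number as a block, 817 probes were higher and 688 lower, 554 genes were higher and 472 lower, and the SMAD counts stayed at 4 and 1 probes and 2 and 1 genes. The block ended the calls of BAMBI (adjusted p = 0.0559) and RUNX3 (0.0632). TGIF1 lost its call with the median of its probes (0.18, adjusted p = 0.115), and at an adjusted p under 0.01 LEMD3, BMP7, TGIF2, BAMBI, RUNX3 and FAM210A were no longer called. Single arrays also ended calls, for BAMBI vehicle replicate 2 and TGFβ1 replicates 1 and 2 (adjusted p up to 0.0663), for RUNX3 vehicle replicates 2 and 3 and TGFβ1 replicates 1 and 2 (up to 0.0823), and for FAM210A each array but TGFβ1 replicate 4 (up to 0.149). The causes were not tested. Levels could not be compared between genes at any setting, and 4 arrays per group leave the intervals of the 5 uncalled SMAD genes wide enough to hold changes of 0.1 or more.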
